A study of Mus musculus with 23 samples.

Results

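Notch receptors, their ligands and their target genes were followed as a group of 10 genes in RNA sequencing of mouse sciatic nerves (SNs). The genes were taken by symbol: the receptors Notch1, Notch2, Notch3 and Notch4, the ligands Jag1, Jag2, Dll1 and Dll4, and the target genes Hes1 and Hey1. All 10 were found among the 43068 genes listed for the crush libraries and among the 22880 genes listed for the mutant libraries. Notch is a signalling pathway between touching cells. A ligand on one cell binds a receptor on its neighbour, the receptor is cut, and its intracellular part enters the nucleus, joins the DNA-binding protein RBPJ and switches on genes such as Hes1 and Hey1. In Schwann cells (SCs), the glia that wrap axons with myelin, Notch is known from other work as a driver of proliferation in immature cells, as a brake on myelination and as a promoter of myelin breakdown after injury. Notch4 and Dll4 are best known from endothelial cells and Notch3 from mural cells of blood vessels.

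The samples were 23 libraries in 7 groups. In the crush experiment, SNs of wild-type C57bl6 mice were taken 3 days post crush (dpc) from the injured side (crushed, n = 4) and from the uninjured side (contralateral, n = 4), and nerves labelled as uncrushed surgery controls gave another group (n = 3). The study's methods describe these mice as males aged 2 months. In the mutant experiment, all mice were C57bl6, carried floxed alleles in both copies and had received tamoxifen 3 months before (3 mpT). Dicer iKO mice had the genotype P0-CreERT2 -/+ Dicer1 flox/flox and Dicer controls P0-CreERT2 -/- Dicer1 flox/flox, and Dgcr8 iKO and Dgcr8 control mice had the same Cre genotypes with Dgcr8 flox/flox (n = 3 each). Tamoxifen was given to mutants and controls alike at 8 to 10 weeks of age, per the methods, and mice of either sex were used. Dicer, an RNase, and DGCR8, the RNA-binding partner of the RNase Drosha, are needed to make microRNAs (miRNAs), so the mutants address what the loss of miRNAs does in adult SCs. Cre was driven by a promoter that targets myelinating SCs, while RNA was taken from the whole nerve. The study kept mutants with affected nerve morphology, so the iKO groups are not a random draw of mutant animals.

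Whole-nerve levels mix cell types, and fewer cells of a type and less RNA per cell cannot be told apart. Total expected counts ranged from 6617716 to 12806066 in the crush libraries and from 5594859 to 10143244 in the mutant libraries. A gene with 3 counts in a library, taken as the floor, was at 0.234 to 0.536 CPM (counts scaled to a common library size), a limit that covers counting error only. The tissue label held: the summed CPM of 4 myelin markers (Mbp, Pmp22, Mag, Prx) ranged from 20178 to 29479 in uninjured wild-type nerves. The targeted genes did not pass the test on counts over the whole transcript. The study itself reports, by quantitative PCR at 3 mpT, less mRNA of the targeted gene in each mutant and less of the miRNA let-7f. Dicer1 was at 81.0, 82.8 and 82.4 CPM in Dicer iKO and at 88.0, 88.4 and 91.0 in Dicer controls, lower in each mutant than in each control (edgeR quasi-likelihood test, log2 fold change -0.11, adjusted p = 0.357), and Dgcr8 was at 39.3, 53.7 and 41.7 CPM in Dgcr8 iKO and at 38.2, 34.8 and 41.9 in Dgcr8 controls (log2 fold change 0.22, adjusted p = 0.233). The Dicer controls were not alike. Dicer control 3 resembled the Dgcr8 controls in its repair SC markers (Ngfr, Gdnf, Shh, Jun, Olig1), with a summed 77.0 CPM against 88.6 to 92.6, while Dicer controls 1 and 2 were at 158 and 133. Their myelin marker sums were 21358.6 and 27492.7 CPM against 35053.9 in Dicer control 3, and their fibroblast marker sums 14781.3 and 11104.5 against 4582.91. Results in Dicer iKO are therefore also given with Dicer controls left out.

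Since the mutants lost a gene for making miRNAs in SCs, mature sequences of 7 miRNAs that the study names as abundant in SNs were set against the 3′ untranslated regions (UTRs) of the 10 genes. They are shown because a match to their seed is 1 sequence feature by which the loss of these miRNAs could touch a transcript. The study does not exclude other routes, such as the binding of hairpins in mRNAs by Drosha and DGCR8. Sequences are from RefSeq (GRCm38.p6), 5′ to 3′, with the seed (bases 2 to 8) in capitals. Both miR-10 sequences share 1 seed and are read as 1 family below.
let-7f-5p: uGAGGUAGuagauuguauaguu
miR-27b-3p: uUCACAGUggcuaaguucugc
miR-26a-5p: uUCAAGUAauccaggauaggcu
miR-181a-5p: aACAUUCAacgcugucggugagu
miR-10a-5p: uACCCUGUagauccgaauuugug
miR-10b-5p: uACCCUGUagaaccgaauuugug
miR-22-3p: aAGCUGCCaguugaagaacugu

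In each gene, the protein-coding transcript with the highest summed TPM (transcript abundance scaled to length and library size) over the 12 mutant libraries was searched for the 7 bases that pair with a seed. At least 1 match was found in 5 of the 10 genes, against 48.0% of 12964 genes tested in Dgcr8 nerves. Sites are printed from GENCODE M21 transcripts (GRCm38) with the paired bases in capitals, and each lies within 1 exon of the 3′ UTR. Notch1 held a miR-22 match (minus strand of chr2:26458141-26458163) in a UTR of 1628 bases. Notch2 held 2 miR-27b matches (plus strand of chr3:98148284-98148306 and chr3:98148406-98148428), a miR-181a match (chr3:98150062-98150084) and a miR-10 match (chr3:98148018-98148040) in a UTR of 2917 bases. Jag1 held a miR-26a match (minus strand of chr2:137081721-137081743) and a miR-181a match (chr2:137082801-137082823) in a UTR of 1568 bases.
Notch1, miR-22: ccacctcctcagGGCAGCTcttt
Notch2, miR-27b: ggaggcttaggtACTGTGAtatt
Notch2, miR-27b: ccattgactgccACTGTGAagca
Notch2, miR-181a: taaccagcgcgtTGAATGTacga
Notch2, miR-10: cacaggtgcctcACAGGGTttac
Jag1, miR-26a: aagctagttgaaTACTTGAaccg
Jag1, miR-181a: tgcaaaaactagTGAATGTgccc
Dll4, miR-27b: tgaactgaacagACTGTGAaccc
Notch4, miR-22: cctggaaaatagGGCAGCTtcaa
Dll4 (plus strand of chr2:119334765-119334787) and Notch4 (plus strand of chr17:34588143-34588165) each held 1 match, in UTRs of 1329 and 518 bases. Notch3, Jag2, Dll1, Hes1 and Hey1 held none, in UTRs of 1000, 1070, 676, 368 and 1137 bases, where the median over the genes tested was 962. None of the 10 genes held a let-7f match. A match is a description of the letters and not a binding site, and miRNA levels are not analysed here.

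Expression of the 10 genes after crush, and in the mutants, moved in both directions. Of the 10 genes, 3 rose and 1 fell in crushed against uncrushed nerves, 3 rose and 3 fell in crushed against contralateral nerves, 1 rose and none fell in Dicer iKO, and 3 rose and 3 fell in Dgcr8 iKO (adjusted p at or under 0.05, edgeR quasi-likelihood test over all genes). Over all genes tested, 67.2% passed in crushed against uncrushed nerves (33.8% higher, 33.4% lower), 66.4% against contralateral nerves (33.5% and 32.9%), 21.2% in Dicer iKO (12.3% and 8.88%) and 44.5% in Dgcr8 iKO (23.9% and 20.6%). The Notch genes were thus not called more often than genes at large in the crush comparisons or in Dicer iKO. In Dgcr8 iKO 6 of 9 were called, a number that ranged from 4 to 6 with 1 library left out. The 2 crush comparisons share the crushed libraries. Dll1 was too low to be tested in either mutant, which left 9 genes there. Notch1, Jag1 and Hes1 rose in both crush comparisons and in Dgcr8 iKO, and Notch2 fell in the same 3 comparisons. Their values by library follow, by role.

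**Figure D1:**
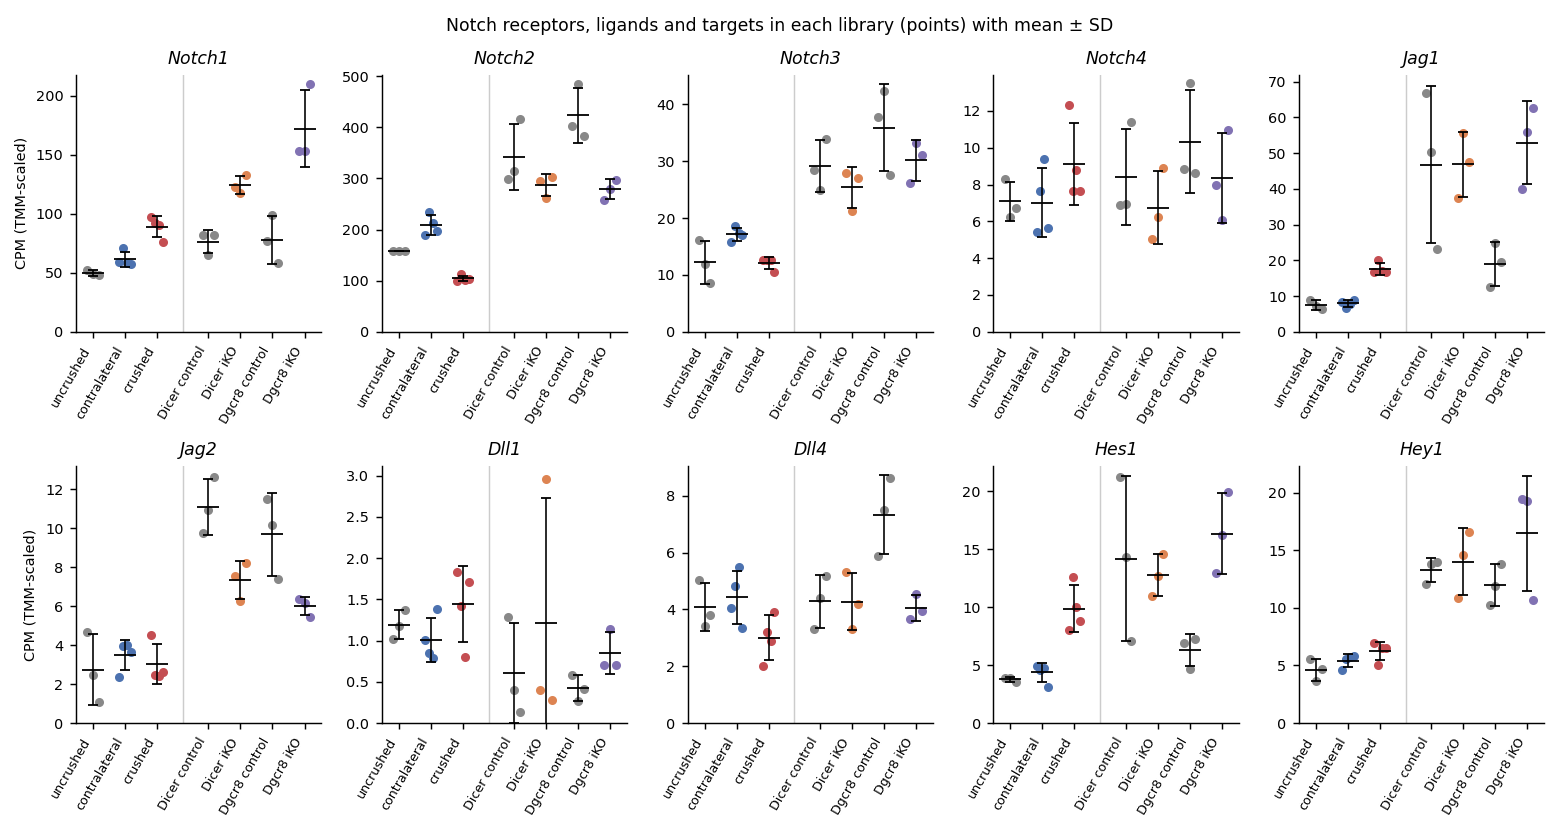
CPM (TMM-scaled within each experiment, linear axis) of the 10 genes in each of the 23 libraries, 1 point a library, with the mean and SD of each group as black bars. The grey line separates the crush from the mutant experiment, whose levels are not compared. Crushed nerves stand above both controls for Notch1, Jag1 and Hes1 and below them for Notch2, and the Dicer controls spread widely for Jag1 and Hes1.

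Among the receptors, Notch1 rose after crush and in both mutants. It was at 97.5, 91.8, 90.2 and 76.3 CPM in crushed nerves, at 58.8, 71.2, 58.6 and 57.3 in contralateral nerves and at 52.3, 48.6 and 48.2 in uncrushed nerves. Each crushed library lay above every control library. Notch1 rose by a log2 fold change of 0.72 ± 0.10 (SE) against uncrushed nerves (edgeR, adjusted p = 3.58e-05) and of 0.39 ± 0.09 against contralateral nerves (edgeR, adjusted p = 0.00183). In the mutants, Notch1 was at 123, 118 and 133 CPM in Dicer iKO against 81.7, 64.9 and 81.7 in Dicer controls, and at 153, 153 and 209.8 in Dgcr8 iKO against 76.8, 98.5 and 58.0 in Dgcr8 controls. Neither mutant overlapped with its controls. Notch1 alone of the 9 tested genes passed in Dicer iKO, with a log2 fold change of 0.71 ± 0.12 (edgeR, adjusted p = 0.00809), and passed without each Dicer control in turn (log2 fold change 0.60 to 0.77, edgeR, adjusted p of at most 0.0359). In Dgcr8 iKO, its log2 fold change was 1.14 ± 0.20 (edgeR, adjusted p = 0.000809). The difference between the mutant effects, 0.43 ± 0.26, did not pass (edgeR interaction term, adjusted p = 0.493).

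Notch2, a closely related receptor, went the other way. It was at 100.4, 112, 102 and 103 CPM in crushed nerves, at 190.3, 235, 213 and 198 in contralateral nerves and at 159, 157 and 159 in uncrushed nerves. Every crushed library lay below every control library. The log2 fold change was -0.72 ± 0.09 against uncrushed (edgeR, adjusted p = 1.33e-05) and -1.14 ± 0.08 against contralateral nerves (edgeR, adjusted p = 2.42e-08). On the deposited TPM scale the Notch2 mean was higher, not lower, in crushed than in uncrushed nerves, whereas the direction against contralateral nerves was the same on both scales. In Dgcr8 iKO, Notch2 was at 259, 280.3 and 297 CPM against 402, 484 and 384 in Dgcr8 controls. All mutants lay below all controls, and Notch2 fell by 0.61 ± 0.15 on the log2 scale (edgeR, adjusted p = 0.00604). In Dicer iKO, it was at 295, 262 and 302 CPM against 298, 314 and 417. The highest mutant lay above the lowest control, and the log2 fold change of -0.25 ± 0.15 did not pass (edgeR, adjusted p = 0.26). It was -0.09 without Dicer control 3, the highest control, and -0.54 against Dicer control 3 alone, values that follow from which control is kept.

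The ratio of Notch1 to Notch2 counts within a library does not depend on any scaling between libraries, and was looked at after the separate values were known. Since both genes had already been seen to separate the groups in opposite directions, the ratio is given as a description, with no test. It was 0.853 ± 0.0974 (SD, n = 4) in crushed, 0.294 ± 0.0150 (n = 4) in contralateral and 0.314 ± 0.0135 (n = 3) in uncrushed nerves. The lowest crushed library, at 0.742, lay above the highest control library, at 0.329. The ratio was 2.70 times that of uncrushed nerves and 2.89 times that of contralateral nerves (geometric means). In Dicer iKO it was 0.435 ± 0.0170 against 0.226 ± 0.0424, and in Dgcr8 iKO 0.615 ± 0.0820 against 0.182 ± 0.0274 (n = 3 each). Both mutants stood clear of their controls, with geometric means 1.95 and 3.39 times as high. Notch1 counts stayed below Notch2 counts in every library. Dicer control 1, at 0.274, was the highest of the 6 mutant-experiment controls. Contralateral and uncrushed nerves overlapped in this ratio of counts, but not in that of TPM, which was 0.321 to 0.383 in contralateral and 0.433 to 0.446 in uncrushed nerves.

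**Figure D2:**
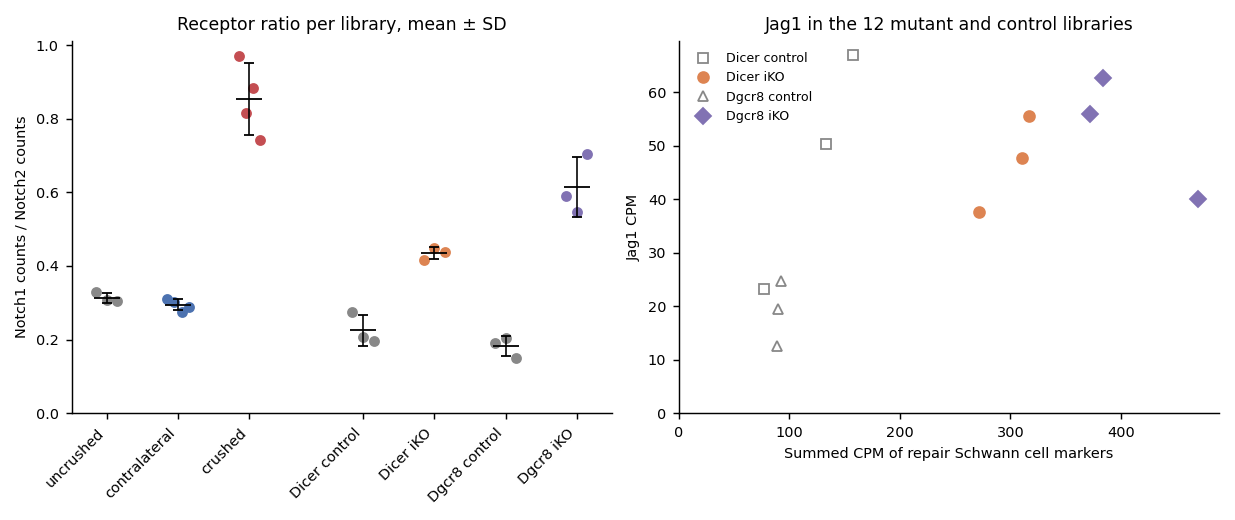
Left, Notch1 counts divided by Notch2 counts in each library (points) with the group mean and SD (black), where crushed nerves range from 0.742 to 0.971 and their controls from 0.275 to 0.329. Right, Jag1 in CPM against the summed CPM of 5 repair SC markers in the 12 mutant-experiment libraries, where Dicer controls 1 and 2 (open squares) stand apart from Dicer control 3 and the Dgcr8 controls.

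Notch3 was at 12.7, 12.6, 12.6 and 10.4 CPM in crushed, at 15.8, 18.6, 17.3 and 16.9 in contralateral and at 16.1, 12 and 8.55 in uncrushed nerves. Crushed and contralateral nerves did not overlap, while uncrushed nerves spread across both. Notch3 fell against contralateral nerves by 0.65 ± 0.10 on the log2 scale (edgeR, adjusted p = 5.58e-05) and was at -0.16 ± 0.18 against uncrushed nerves (edgeR, adjusted p = 0.428). In Dicer iKO and Dgcr8 iKO its log2 fold changes were -0.19 and -0.25 and did not pass (edgeR, adjusted p = 0.451 and 0.257). The summed CPM of 8 mural cell markers, all of them detected, was 262 to 310.4 in crushed and contralateral nerves, of which 3 rose and 2 fell in crushed nerves, and the part of mural cells in the Notch3 values was not tested. Notch4 passed in no comparison. Its CPM ranged from 7.63 to 12.3 in crushed nerves and from 5.42 to 9.40 in both controls, and from 5.04 to 13.5 over the mutant libraries, with overlapping groups throughout.

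Of the 4 ligands among the 10 genes, Jag1 had the largest log2 fold changes in both crush comparisons and in Dgcr8 iKO. Jag1, which encodes a membrane-bound ligand, was at 16.7, 20.1, 16.9 and 16.9 CPM in crushed nerves, at 8.36, 6.53, 7.83 and 8.96 in contralateral nerves and at 8.97, 7.29 and 6.26 in uncrushed nerves. All crushed libraries lay far above all controls. Jag1 rose 2.13-fold against uncrushed nerves (log2 fold change 1.09 ± 0.14, edgeR, adjusted p = 3.07e-05) and 2.03-fold against contralateral nerves (1.02 ± 0.12, edgeR, adjusted p = 2.52e-06). Increases of at least 2-fold were found for 15.3% and 14.6% of all genes in these comparisons. In Dgcr8 iKO, Jag1 was at 40.0, 55.9 and 62.7 CPM against 12.5, 24.8 and 19.4 in Dgcr8 controls. No mutant reached down to a control, and the rise was 2.796-fold (log2 fold change 1.48 ± 0.23, edgeR, adjusted p = 0.000423), where 13.4% of all genes rose at least 2-fold.

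In Dicer iKO, Jag1 was at 37.5, 55.6 and 47.6 CPM, close to Dgcr8 iKO. Its own controls were at 66.9, 50.3 and 23.2 CPM. Dicer control 1 lay above every library of both mutants, Dicer control 2 among them, and Dicer control 3 within the range of the Dgcr8 controls. The log2 fold change was 0.01 ± 0.34 (edgeR, adjusted p = 0.991). It was -0.32 without Dicer control 3, the lowest control, and 1.01 against Dicer control 3 alone, so the direction follows from which control is kept. The order of the controls for Jag1 was that of their repair marker sums (158, 133 and 77.0 CPM) and the reverse of their myelin marker sums, and the part of these differences in the Jag1 values was not tested. The effect in Dgcr8 iKO minus that in Dicer iKO was 1.48 ± 0.47 and did not pass (edgeR interaction term, adjusted p = 0.214). Without Dicer control 3 it was 1.81 (edgeR, adjusted p = 0.0173).

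The other ligands were low. Jag2 was at 6.35, 6.17 and 5.47 CPM in Dgcr8 iKO against 11.5, 10.2 and 7.38 in Dgcr8 controls, and at 7.56, 6.26 and 8.21 in Dicer iKO against 9.76, 10.97 and 12.6 in Dicer controls. The mutants lay below their controls in both. Jag2 fell by 0.69 ± 0.23 on the log2 scale in Dgcr8 iKO (edgeR, adjusted p = 0.0277), a call that was lost in 4 of the 6 fits that left out 1 library (without Dgcr8 control 1, 0.122, without Dgcr8 control 2, 0.0691, without Dgcr8 iKO 1, 0.0593, and without Dgcr8 iKO 3, 0.0671). In Dicer iKO the log2 fold change of -0.59 ± 0.19 did not pass (edgeR, adjusted p = 0.0685), nor did the values of -0.67 to -0.49 without each Dicer control in turn (edgeR, adjusted p of at least 0.0632). In the crush experiment, Jag2 ranged from 2.40 to 4.55 CPM in crushed nerves, inside the range of 1.07 to 4.70 of the controls. Only without crushed replicate 1, the library at 4.55, did a fall against contralateral nerves pass (log2 fold change -0.65, edgeR, adjusted p = 0.0238).

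Dll4, a ligand of endothelial cells, was at 2.01, 3.20, 2.896 and 3.91 CPM in crushed, at 4.04, 4.82, 5.48 and 3.35 in contralateral and at 5.04, 3.41 and 3.82 in uncrushed nerves. Crushed replicate 4 overlapped with both controls. The log2 fold change was -0.70 ± 0.23 against contralateral (edgeR, adjusted p = 0.015) and -0.58 ± 0.26 against uncrushed nerves (edgeR, adjusted p = 0.0663). The first call was lost without contralateral replicate 3 (edgeR, adjusted p = 0.0568), and the second comparison passed without crushed replicate 4 (edgeR, adjusted p = 0.0255). In Dgcr8 iKO, Dll4 was at 3.65, 4.55 and 3.96 CPM against 5.88, 7.51 and 8.62 in controls. The groups did not overlap and Dll4 fell by 0.86 ± 0.24 (edgeR, adjusted p = 0.0135), which did not pass without Dgcr8 control 3 (0.0619) or without Dgcr8 iKO 1 (0.055). The Dicer groups overlapped, with 5.30, 3.30 and 4.18 CPM in mutants and 3.30, 4.41 and 5.16 in controls. Summed over 8 endothelial markers, all of them detected, CPM was 223 to 272 in crushed against 147 to 189 in both uninjured groups, 202 to 278 in Dgcr8 iKO against 309 to 353 in its controls, and 196 to 218 in Dicer iKO against 278 to 304. Of these 8 markers, 5 rose and 1 fell against uncrushed nerves, and 4 rose and 2 fell against contralateral nerves (edgeR). None rose in the mutants, and 4 fell in Dgcr8 iKO and 1 in Dicer iKO. The mean of Cldn5 was 45.8 CPM in Dgcr8 iKO against 105 in its controls, and that of Cdh5 34.8 against 27.1. The part of endothelial cells in the Dll4 values was not tested.

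Dll1 was near the floor. Over the crush libraries, it had 8 to 21 counts a library, and its log2 fold changes of 0.19 and 0.40 in crushed nerves did not pass (edgeR, adjusted p = 0.665 and 0.301). In the mutant libraries it had 1 to 17 counts. The highest, in Dicer iKO 2, was 2.96 CPM where the other Dicer iKO libraries were at 0.398 and 0.278, and a difference could not be assessed at this depth.

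Of the target genes, Hes1, a transcriptional repressor, followed Jag1. It was at 8.05, 12.6, 9.99 and 8.83 CPM in crushed nerves, at 4.96, 4.59, 4.80 and 3.15 in contralateral nerves and at 3.93, 3.88 and 3.51 in uncrushed nerves. Crushed libraries lay above all controls. Hes1 rose 2.39-fold against uncrushed nerves (log2 fold change 1.25 ± 0.19, edgeR, adjusted p = 9.02e-05) and 2.04-fold against contralateral nerves (1.03 ± 0.17, edgeR, adjusted p = 0.000111). In Dgcr8 iKO, it was at 12.9, 16.2 and 19.9 CPM against 6.94, 4.69 and 7.27 in controls. The groups stood well apart, with a 2.57-fold rise (log2 fold change 1.36 ± 0.23, edgeR, adjusted p = 0.00065). In Dicer iKO, it was at 11, 12.7 and 14.6 CPM against 21.2, 14.3 and 7.06 in controls. Dicer control 3 was at the level of the Dgcr8 controls and the other Dicer controls were not, as for Jag1. The log2 fold change was -0.15 ± 0.36 (edgeR, adjusted p = 0.795) and was -0.47 without Dicer control 3 and 0.85 against it alone. The difference between the mutant effects was 1.51 ± 0.45 (edgeR interaction term, adjusted p = 0.197), and 1.84 without Dicer control 3 (edgeR, adjusted p = 0.0153).

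Hey1, another repressor downstream of Notch, did not pass in any comparison. It was at 6.91, 5.07, 6.49 and 6.52 CPM in crushed, 4.59, 5.52, 5.78 and 5.81 in contralateral and 5.55, 3.65 and 4.73 in uncrushed nerves. These groups overlapped, with log2 fold changes of 0.30 ± 0.21 against uncrushed (edgeR, adjusted p = 0.217) and 0.07 ± 0.16 against contralateral nerves (edgeR, adjusted p = 0.715). Intervals of 2 SE reached 0.71 and 0.38, so a 2-fold rise lay outside them. In Dgcr8 iKO, Hey1 was at 19.4, 19.3 and 10.7 CPM against 10.2, 11.9 and 13.8 in controls. Dgcr8 iKO 3 was among the controls and the others above them. The log2 fold change was 0.45 ± 0.23 (edgeR, adjusted p = 0.139), and 0.68 without Dgcr8 iKO 3 (edgeR, adjusted p = 0.011). In Dicer iKO it was 0.08 ± 0.19 (edgeR, adjusted p = 0.787).

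**Figure D3:**
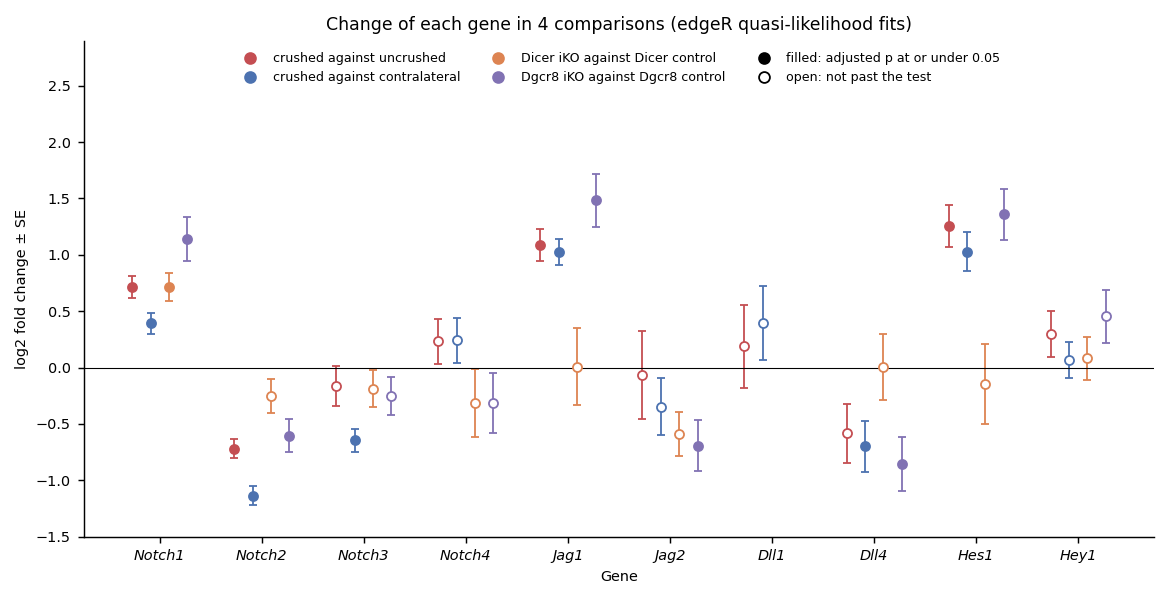
log2 fold change (vertical axis) with its SE for each of the 10 genes in 4 comparisons, filled where the adjusted p is at or under 0.05. Filled points above 0 are Notch1, Jag1 and Hes1 and filled points below 0 are Notch2, Notch3, Jag2 and Dll4, and Dll1 has no point for the mutants because it was not tested there.

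No difference passed between contralateral and uncrushed nerves. None of the 10 genes passed (edgeR), although 3 had an unadjusted p under 0.05, nor did any of the 17722 genes tested (0%), of which 3165 had an unadjusted p under 0.05. The largest log2 fold changes of the 10 genes were 0.38 ± 0.16 for Notch3 and 0.32 ± 0.09 for Notch2 (edgeR, adjusted p = 0.254 and 0.135). Notch2 and Notch1 libraries did not overlap between these groups, and both were higher on the contralateral side. By DESeq2's Wald test 250 genes passed, and 656 by edgeR with no filter on low counts. Notch2 was among the former (log2 fold change 0.34, adjusted p = 0.0409).

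The difference between the mutant effects, tested over the 12 mutant libraries, passed for none of the 9 genes (edgeR interaction term, at least 0.197 after adjustment) and for 2 of 13552 genes in all (0.0148%), and for none of the 9 and 235 in all by DESeq2. At an unadjusted p under 0.05 it held 3 of the 9 genes, Hes1, Jag1 and Dll4, the last with a value of -0.86 ± 0.37. Of all 13552 genes tested, 1861 (13.7%) had such a p.

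Levels between genes were compared within a library only, as the share of the 10 genes' summed TPM, which is scaled to transcript length. Notch2 was the most abundant of the 10 in 21 of 23 libraries, and Notch1 in the other 2, both from crushed nerves. The share of Notch2 was 40.6% ± 0.49 (SD, n = 3) in uncrushed, 43.9% ± 1.69 (n = 4) in contralateral and 24.0% ± 0.92 (n = 4) in crushed nerves, and that of Notch1 was 17.8% ± 0.40, 15.7% ± 1.21 and 23.9% ± 1.89. In crushed nerves the shares of both receptors did not differ beyond their spread. In the mutants, Notch2 was at 35.9% ± 0.78 in Dgcr8 iKO against 58.3% ± 1.59 in controls, and at 40.4% ± 4.13 in Dicer iKO against 47.4% ± 8.73. Hes1 had rank 3 in every crushed and Dgcr8 iKO library, with mean shares of 16.9% and 14.3% against 7.0% in contralateral nerves and 6.60% in Dgcr8 controls. Jag1 held 10.6% in crushed against 4.48% in contralateral nerves, and 11.7% in Dgcr8 iKO against 4.49% in its controls. In Dicer iKO, Jag1 held 11.7% against 10.8% in its controls and Hes1 13.5% against 13.0%, which is within the spread of those controls. Dll1 was last in 13 libraries, Jag2 in 8 and Dll4 in 1, counting untied ranks.

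**Figure D4:**
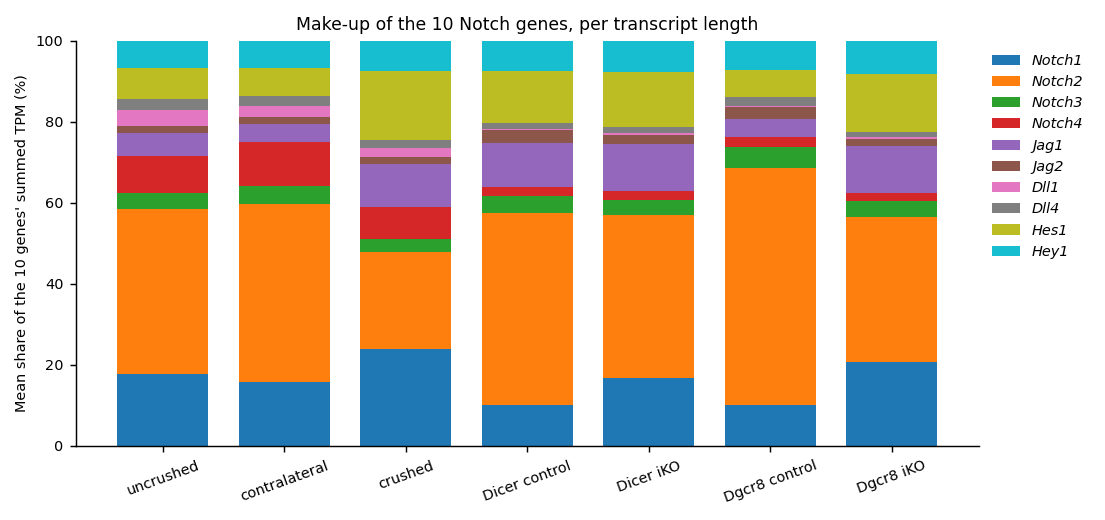
Mean share of each of the 10 genes in their summed TPM (vertical axis, percent), stacked for each of the 7 groups. Notch2 (orange) takes 40.6% in uncrushed and 24.0% in crushed nerves, and Hes1 (olive) and Jag1 (purple) take more in crushed than in uncrushed and contralateral nerves and more in Dgcr8 iKO than in its controls, while Dicer iKO and Dicer controls are at 13.5% and 13.0% for Hes1 and at 11.7% and 10.8% for Jag1.

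Marker genes of several cell types moved with these changes. In crushed nerves the summed CPM of the 5 repair SC markers ranged from 1503.38 to 2213.71, against 58.0 to 79.3 in both controls, with Olig1 at or near 0 in all 3 groups. That of 6 macrophage markers ranged from 379 to 658 against 80.4 to 155, and that of 4 myelin markers from 812.351 to 1233.64 against at least 20178. In Dgcr8 iKO, repair markers summed to 371.6 to 469.5 CPM against 88.6 to 92.6, macrophage markers to 451 to 842 against 224 to 273, and fibroblast markers to 14433.5 to 17401.3 against 6044.16 to 7900.4. In Dicer iKO, these sums were 272 to 316, 754 to 953 and 19359.5 to 20657.9, against 77.0 to 158, 222 to 556 and 4582.91 to 14781.3 in its controls. Of the repair markers, Olig1 was at 0 in all Dgcr8 controls and at 0 to 3.65 CPM in Dgcr8 iKO, and 2 of the 5 were at 0 in Dicer control 3. Of the 6 macrophage markers, 4 rose and 1 fell in Dgcr8 iKO, and 3 rose and none fell in Dicer iKO (edgeR). The mean of Cd163 was lower in both mutants, at 10.8 CPM against 65.8 in Dgcr8 iKO and 55.9 against 102 in Dicer iKO. Of the 6 fibroblast markers, 5 rose in Dgcr8 iKO and 3 in Dicer iKO, and none fell there, whereas 1 rose and 3 fell in each crush comparison. All 4 markers of cycling cells (Mki67, Top2a, Ccnb1, Birc5) rose in both crush comparisons and in both mutants (edgeR). The part of these cell types in the changes of the Notch genes was not tested.

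A wider list held 53 further genes of the pathway. Of 48 genes tested in crushed against uncrushed nerves, 20 rose and 9 fell (60.4% passed), and of 47 against contralateral nerves 17 rose and 17 fell (72.3%), near the 67.2% and 66.4% of all genes. In Dicer iKO, 10 rose and 3 fell of 46 (28.3%), and in Dgcr8 iKO 14 rose and 9 fell of 47 (48.9%), where 21.2% and 44.5% of all genes passed. The count in Dicer iKO fell to 3 genes without Dicer control 2, without Dicer iKO 2 or without Dicer iKO 3, where 977, 879 and 841 of all genes passed in place of 2764. The median log2 fold change of the list lay between -0.03 and 0.11 in these comparisons, and that of all genes between -0.06 and -0.01. Of the 10 genes for receptor cleavage, 6 rose and 1 fell in each crush comparison and in Dgcr8 iKO, and 5 rose and 1 fell in Dicer iKO. The 70% that passed in each crush comparison was near the share of all genes. The one that fell was Adam10 throughout, which encodes the main protease for the first ligand-dependent cut (log2 fold change -1.67 ± 0.10 against contralateral nerves, edgeR, adjusted p = 2.27e-09, and -0.58 ± 0.14 in Dicer iKO, edgeR, adjusted p = 0.0258). Adam17, a related protease, rose by 1.32 ± 0.11 in Dicer iKO (edgeR, adjusted p = 0.00134), and Furin, which processes the receptor on its way to the surface, rose by 1.21 ± 0.08 in crushed against contralateral nerves (edgeR, adjusted p = 1.29e-08).

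Of 5 genes for fringe enzymes and O-glycosylation, 2 rose in each of the 4 comparisons. Of these 5, 1 fell against uncrushed and 2 against contralateral nerves, and none in the mutants. Of 13 genes for endocytosis and ubiquitin ligases, 3 rose and 3 fell in crushed against uncrushed nerves. Against contralateral nerves 3 rose and 7 fell, in Dicer iKO 3 rose and 1 fell, and in Dgcr8 iKO 4 rose and 2 fell. Over all genes, 67.2%, 66.4%, 21.2% and 44.5% passed in these comparisons. Lfng, a sugar transferase that alters which ligands a receptor answers to, rose by 2.14 ± 0.18 and 1.69 ± 0.14 on the log2 scale in crushed against uncrushed and contralateral nerves and by 1.52 ± 0.18 in Dgcr8 iKO (edgeR, adjusted p = 5.54e-07, 5.52e-08 and 6.16e-05). Its relative Mfng rose by 1.24 ± 0.27 in Dicer iKO (edgeR, adjusted p = 0.0176). Neurl1b, a ubiquitin ligase that acts on ligands, rose in all 4 comparisons, by 1.68, 1.61, 1.47 and 2.20 in the order crushed against uncrushed, crushed against contralateral, Dicer iKO and Dgcr8 iKO (edgeR, adjusted p = 8.33e-06, 6.02e-07, 0.00485 and 0.000131), and Neurl1a rose by 1.84 ± 0.33 in Dgcr8 iKO (edgeR, adjusted p = 0.000999). Mib1, another ligase for ligands, fell by 0.42 ± 0.10 in Dicer iKO (edgeR, adjusted p = 0.0259). Of the pathway genes named for Dicer iKO, Adam17 and Neurl1b passed without each Dicer control in turn, whereas without Dicer control 2 Adam10, Mfng, Mib1 and Heyl did not (edgeR, adjusted p = 0.0802, 0.0612, 0.0918 and 0.0673), and Heyl did not without Dicer control 1 (edgeR, adjusted p = 0.0537).

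Of 5 other ligands, 2 to 3 were high enough to be tested, and 2 fell in each crush comparison, 3 in Dgcr8 iKO and none in Dicer iKO (edgeR). Cntn1, an adhesion molecule, fell by 2.34 ± 0.17 and 2.03 ± 0.18 in the crush comparisons and by 1.45 ± 0.27 in Dgcr8 iKO (edgeR, adjusted p = 1.77e-07, 1.86e-07 and 0.00119). Dlk1, an imprinted gene for a non-canonical ligand, had log2 fold changes of -1.68 ± 0.31 and -1.48 in the crush comparisons (edgeR, adjusted p = 0.000465 and 0.000341). In Dgcr8 iKO it passed (edgeR, adjusted p = 0.000153) with 1 count in each library, under the floor of 3, against 14 to 29 counts in its controls, so no fold is given. Dner fell by 1.39 ± 0.45 in Dgcr8 iKO (edgeR, adjusted p = 0.0254). Other target genes split. Of 5 tested in each crush comparison, 2 rose and 1 fell against uncrushed nerves, and 1 rose and 2 fell against contralateral nerves. Over all genes, 67.2% and 66.4% passed there. Nrarp, a feedback inhibitor of the pathway, rose by 1.75 ± 0.39 in crushed against uncrushed nerves (edgeR, adjusted p = 0.00182). It was low, with 23 to 37 counts a library in crushed and 5 to 9 in uncrushed nerves. Hey2 fell by 1.74 ± 0.35 and 2.18 ± 0.26 in the crush comparisons (edgeR, adjusted p = 0.00095 and 3.51e-06), to 6 to 10 counts a library in crushed nerves. Heyl, another gene of the Hey family, fell by 1.39 ± 0.33 in Dicer iKO (edgeR, adjusted p = 0.0241). Of 12 genes for the nuclear complex and co-repressors, 7 rose and 1 fell against uncrushed nerves, and 5 rose and 3 fell against contralateral nerves. The 66.7% that passed in each was near the share of all genes. None of the 12 passed in Dicer iKO, and 1 rose and 2 fell in Dgcr8 iKO, where 21.2% and 44.5% of all genes passed. No gene of the list passed in contralateral against uncrushed nerves or in the difference between the mutant effects (edgeR). There, 9 and 4 of the 47 genes tested had an unadjusted p under 0.05, where 17.9% and 13.7% of all genes did.

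**Figure D5:**
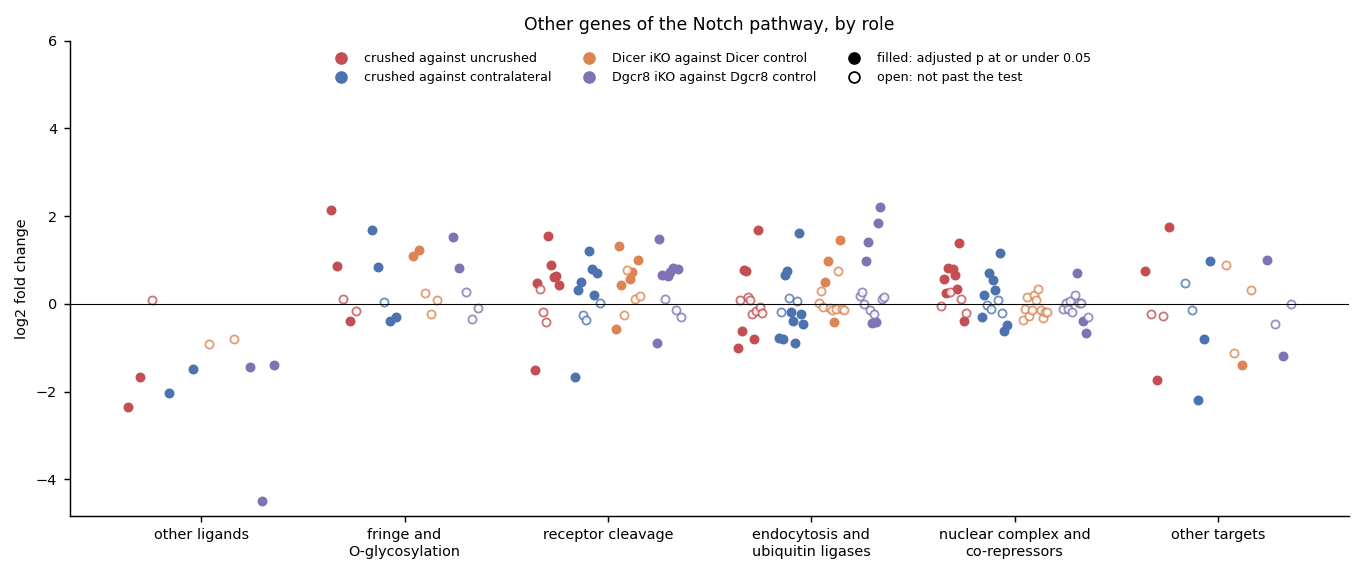
log2 fold change (vertical axis) of the other Notch pathway genes, 1 point a gene, grouped by role along the horizontal axis and coloured by comparison, filled where the adjusted p is at or under 0.05. In receptor cleavage, 6, 6, 5 and 6 filled points lie above 0 and 1 below 0 in the 4 comparisons.

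Across libraries, the genes whose levels ran most like those of Notch1 were Eif4g1 (Pearson r of log2(CPM + 1) of 0.965 over 11 crush libraries and 0.954 over 12 mutant libraries) and Flna (0.951 and 0.950). For Jag1 they were Actn1 (0.965 and 0.969) and Rbfox2 (0.972 and 0.955), and for Hes1 they were Snx9 (0.941 and 0.936) and Sorcs2 (0.947 and 0.936). These were the highest of 11692 genes compared, and the libraries share groups and depth, so the values are a description. In promoters, the letters TGGGAA, the core that RBPJ is known to bind, were searched on both strands in the RefSeq windows of 250 bases before to 50 after the start (GRCm38.p6). Windows were at hand for 8 of the 10 genes (all but Hes1 and Hey1), 9 windows in all, and none held these letters, against 25.6% of 32851 windows. This says only that the letters are not in these windows.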

How the data were processed

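Total RNA of 23 SNs was sequenced. The authors trimmed reads with Trimmomatic and estimated counts per Ensembl transcript of GRCm38 with STAR and RSEM, and the Ensembl release is not given in the sources used here. The deposited expected counts (estimated counts, not normalized) were summed per gene and rounded. The authors also deposited TPM, abundances adjusted for the length of each transcript and the size of each library. These served for shares within a library, the ratio of Notch1 to Notch2 and the direction of group means. They also served to choose the transcript searched for seed matches. By the labels, the kits differ (SMARTer pico-input in the crush experiment, TruSeq in the mutant experiment), whereas the methods name TruSeq alone, so no test was run between the experiments. Gene symbols came from GENCODE M21 (GRCm38) through gene IDs, for 42365 of 43068 and 22570 of 22880 genes. For 1 uncrushed library, the title (replicate 3) was followed over the description (4).

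Tests used R 4.3.3 with edgeR 4.0.16: filterByExpr (minimum count 10), TMM, and the quasi-likelihood test for 2 groups, with Benjamini-Hochberg adjustment over all genes tested and a threshold of 0.05. SEs are the log2 fold change over the root of the F statistic, and intervals are 2 SE. The difference between mutants was an interaction term over 12 libraries. CPM is TMM-scaled within an experiment. Tested on simulated data with 4-fold changes, 200 of 200 changed genes were found in crushed against uncrushed libraries (10 false calls among 17291 genes). For Dgcr8 200 of 200 were found (12 false calls among 13283), and for the interaction 196 of 200 (14 among 13367). The simulation gave all genes the same dispersion and changed no gene of low level. These rates therefore do not carry over to smaller changes or to the uneven Dicer controls. Contralateral and crushed nerves came from the same mice per the methods, but no label ties the numbers to mice. Replicates are separate nerves, and no pair of libraries was a copy (chi-square per degree of freedom 4.36 to 42.4 over 27 pairs).

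Members, lists and tests were chosen with earlier results of these data known. Named are the 10 genes, pathway genes that passed with the up to 3 highest and 3 lowest log2 fold changes of a comparison, the 2 genes most like Notch1, Jag1 and Hes1 (lower r of both experiments, mean log2 CPM of at least 1), the targeted genes and markers. Alternatives were RLE scaling, no filter, at least 10 counts in every sample, DESeq2 1.42.0, all groups in 1 fit, the replicate number as a block, TPM, and each replicate left out. Dicer control 3 as the lone control, the ratio of Notch1 to Notch2 and the lists with 1 replicate left out were added after seeing the data, as were the fits of named pathway genes without Dicer controls. Deposited FPKM and posterior columns were not used, and some marker genes are not reported here.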

Additional observations from a re-analysis of the deposited data

Results flagged for a closer look

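In the groups of 4 libraries, 20 sets of values (10 genes in crushed and in contralateral nerves) were screened for a single library far from the others by Dixon's ratio, which chance alone exceeds in about 1 of 20 sets. Crushed replicate 4 was low for Notch3, at 10.4 CPM where the others were at 12.6 to 12.7. Crushed replicate 2 was high for Jag1, at 20.1 CPM against 16.7 to 16.9. Crushed replicate 1 was high for Jag2, at 4.55 CPM against 2.40 to 2.61. Contralateral replicate 2 was high for Notch1, at 71.2 CPM against 57.3 to 58.8. Leaving out these libraries ended no call of Notch3, Jag1 or Notch1, and let Jag2 pass against contralateral nerves (log2 fold change -0.65, edgeR, adjusted p = 0.0238).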

How the results depend on the processing

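The numbers of Notch genes that passed were 4, 6, 0, 1, 6 and 0 in crushed against uncrushed, crushed against contralateral, contralateral against uncrushed, Dicer iKO, Dgcr8 iKO and the difference between mutants. They moved to 1 with DESeq2 in contralateral against uncrushed nerves and to 3 in Dicer iKO with Dicer control 3 as the lone control, which assumes that it varies like the mutants and was chosen with its values known. With 1 library left out, the number was 4 to 5 in crushed against uncrushed nerves, 5 to 7 in crushed against contralateral nerves and 4 to 6 in Dgcr8 iKO. For the difference between mutants it ranged from 0 to 2, the 2 being without Dicer control 3. The number of pathway genes in Dicer iKO ranged from 3 to 17. Same-numbered libraries did not deviate together in every pair (mean correlations -0.08 to 0.05). In crushed against contralateral nerves the correlations ranged from -0.14 to 0.23. With 3 or 4 pairs a comparison, this cannot tell whether the numbers pair the samples. In a fit with that number as a replicate block, the counts of Notch genes stayed at 4, 6, 0, 1, 6 and 0, and all genes passing in Dicer iKO went from 2764 to 929 (841 to 3065 with 1 library left out). In contralateral against uncrushed nerves, where 0 passed, 656 did with no filter, 250 with DESeq2, 15 with the block, 1 with all groups in 1 fit and 0 to 179 with 1 library left out, and for the difference between mutants, where 2 passed, 20 with no filter, 235 with DESeq2, 1 with RLE, 0 with the block or the stricter filter and 0 to 401 with 1 library left out. Values near 0 changed sign, with the cause not tested: with no filter, Notch3 0.058 and Jag2 0.14 in crushed against uncrushed, Jag1 0.021 in contralateral against uncrushed, and Jag1 -0.00086 and Dll4 -0.0023 in Dicer iKO. With at least 10 counts in every sample, Dll4 was at -0.0095 in contralateral against uncrushed nerves. DESeq2 gave Jag1 0.00022 there and Dll4 -0.0036 in Dicer iKO, and RLE scaling gave Dll4 -0.0032. The block gave Jag2 0.10 in crushed against uncrushed and Dll4 -0.0047 in Dicer iKO. With Dicer control 3 alone, Dicer iKO values were -0.26 for Dll4, 0.85 for Hes1 and -0.0011 for Hey1, and the difference between mutants 0.16 for Notch3 and 0.082 for Jag2. With 1 library left out, the log2 ranges that crossed 0 were -0.37 to 0.64 for Jag2 and -0.32 to 0.13 for Notch3 (crushed against uncrushed), -0.019 to 0.13 for Hey1 (crushed against contralateral), -0.099 to 0.15 for Jag1, -0.098 to 0.23 for Dll4, -0.27 to 0.054 for Notch4, -0.0092 to 0.32 for Hey1 and -0.11 to 0.87 for Jag2 (contralateral against uncrushed), -0.18 to 0.16 for Dll4, -0.47 to 0.26 for Hes1, -0.32 to 0.36 for Jag1 and -0.050 to 0.25 for Hey1 (Dicer iKO), and -0.28 to 0.27 for Notch4, -0.27 to 0.043 for Jag2 and -0.23 to 0.078 for Notch3 (difference between mutants). Dll4 passed against uncrushed nerves with at least 10 counts in every sample (adjusted p = 0.0299, edgeR) and with all groups in 1 fit (0.0223), and did not pass against contralateral nerves with no filter (0.0536). Members were higher in 30 of 50 comparisons of group means in CPM and in 36 in TPM, and the direction was the same in 40. By TPM, every member was higher in crushed and in contralateral nerves than in uncrushed nerves. Of the 17 comparisons that passed, 16 had the same direction on both scales, the exception being Notch2 in crushed against uncrushed nerves. In TPM the log2 difference in the ratio of Notch1 to Notch2 was 1.19 against 1.44 there, and -0.30 against -0.09 in contralateral against uncrushed nerves. Depth limits Dll1, and 3 or 4 libraries a group limit all tests.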
